A study of Mus musculus with 16 samples.

Results

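The 10 genes described here carry the interleukin 1 signal from the cell surface to NF-kappaB, and were taken by name: Il1rap, Il1r1, Il1b, Il18, Myd88, Irak1, Nfkb1, Rela, Nfkbia and Ikbkb. Every probe set whose only gene symbol in the platform annotation is 1 of these names was used, which gave 25 of the 45037 probe sets tested and covered 9 of the 10 genes. Nfkb1 was not analysed here, because no probe set carries its symbol alone. A filter on low values was set at the 40th percentile of the probe set means (3.58 log2 units), and 19 member probe sets and 8 member genes passed it. Il1b did not.

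RNA came from the hippocampus of 16 female mice of the 3xTG-AD model, all 14 months old and measured on 1 Affymetrix array each. This strain carries mutant human APP and tau transgenes driven by the neuronal Thy1 promoter together with a mutant presenilin allele, and no mice without these alleles are among the 16. The 8 control animals ate a control diet, and the 8 PIO animals ate a diet with 84 ppm pioglitazone (PIO), a dose near 18 mg/kg/day, over 14 weeks that began at 10 months of age. PIO is a thiazolidinedione, an agonist of the nuclear receptor PPAR gamma, and the comparison asks how hippocampal RNA differed between the diets.

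Interleukin 1 beta binds the receptor chain IL1R1, which then recruits the accessory chain IL1RAP, and the joined intracellular TIR domains bring in the adaptor MYD88 and the kinase IRAK1. The signal reaches the IkB kinase complex, whose IKK beta subunit phosphorylates the inhibitor IkB alpha. Its loss frees NF-kappaB dimers such as those of RELA to enter the nucleus and switch on inflammatory genes. In brain the cytokine is made mainly by microglia, while its receptor is found on endothelium and on some neurons, including those of the dentate gyrus. Agonists of PPAR gamma are known to restrain NF-kappaB targets in macrophages.

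All values are the deposited log2 expression values, and the arrays were alike in scale, with medians of 5.64 to 5.76 and correlations between arrays of 0.994 to 0.998 over all probe sets. The 11 measured markers of hippocampal neurons all passed the filter on low values. Choroid plexus markers, averaged over 14 genes, lay between 4.47 and 10.33 log2 units. Striatal markers were highest, and hippocampal neuron markers lowest, in PIO animals 14 and 15. A code that closes each array label forms 3 sets of arrays, and a number at its start falls into the ranges 1 to 6 and 10 to 24. The labels do not say what either stands for.

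None of the 8 members past the filter differed between the diets at an adjusted p under 0.05, and the share of all 12266 genes that did was 0%. Il1rap, the accessory chain of the receptor, came closest and was lower with PIO by 0.18 log2 units. Among the 8 members, 7 had a lower mean with PIO and 1 (Irak1) a higher mean, where 47.3% of all genes were lower. The median log2 difference of the 8 was -0.048, against 0.0045 for all genes, and the median size of a difference was 0.048 against 0.050. At an unadjusted p under 0.05, 1 of the 8 members was called (Il1rap), where 7% of all genes were. The test was limma's moderated test across all genes with Benjamini-Hochberg adjustment, in which the smallest adjusted p of any gene was 0.457. Over all 45037 probe sets the count was also 0 (0%), with 5.26% at an unadjusted p under 0.05. Of the 19 member probe sets past the filter, 15 were lower with PIO, where 49% of all probe sets past it were. The 15 include 4 of Il1rap and 4 of Nfkbia, and probe sets of 1 gene are not separate observations. An unadjusted p under 0.05 was reached by 1 of the 19, where 8.32% of all probe sets past the filter reached it. The members were chosen with earlier results in view, and Il1rap was already known to be low.

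**Figure D1:**
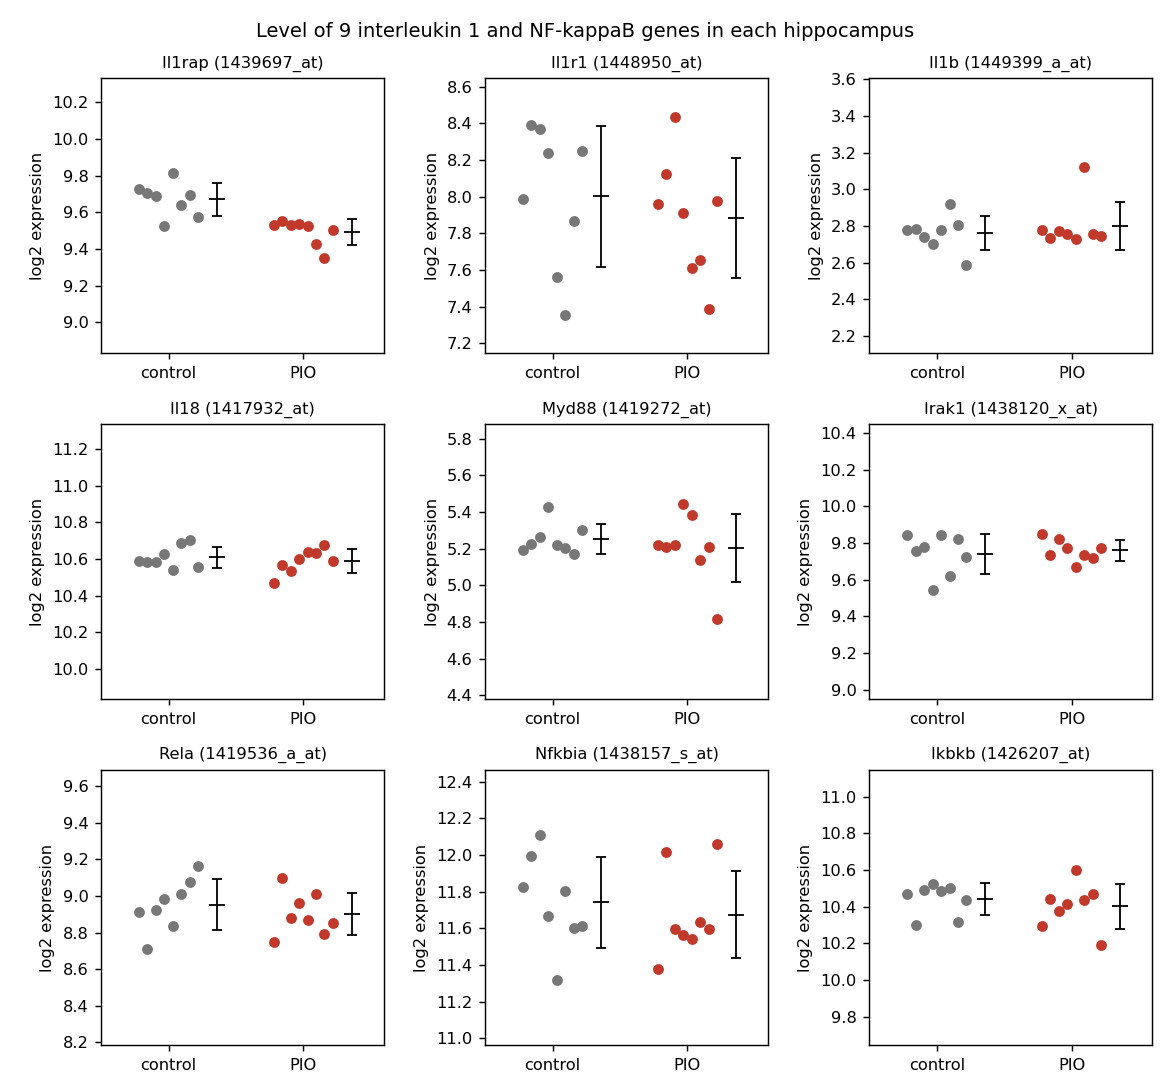
Log2 expression of 9 interleukin 1 and NF-kappaB genes in each of 8 control hippocampi (grey) and 8 PIO hippocampi (red), with the mean and SD of each group beside the points. Every panel spans the same number of log2 units. Il1rap shows 7 of 8 control arrays above the highest PIO array, and in the other panels the groups overlap broadly.

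Il1rap encodes the chain without which the interleukin 1 receptor does not signal, and it also serves the receptor of interleukin 33. Its brightest probe set, 1439697_at, read 9.52, 9.69 and 9.81 log2 units (lowest, median, highest) in the 8 controls and 9.35, 9.53 and 9.55 in the 8 PIO animals. The means were 9.67 ± 0.091 and 9.49 ± 0.070 (SD, n = 8 each). Control animals 4 and 8 were the lowest controls, and control animal 4 alone fell inside the PIO range. Thus 7 of 8 controls stood above every PIO array. At least 7 did so in 0.0815% of all genes, counted in this direction only. As the pattern was taken from Il1rap, already known to be low, this share is a description and not a test. In 0 of the 8 members did the groups fail to overlap, as they did in 0.0326% of all genes.

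The difference for Il1rap was -0.18 (SE 0.043, 95% interval -0.27 to -0.084), a level 0.885-fold that of controls, with an unadjusted p of 8.67e-04 and a limma adjusted p of 0.532. It ranked 15 of 12266 genes by p. Within the largest array code (5 control and 6 PIO arrays) the difference was -0.20, in array numbers 10 to 24 (4 and 6) it was -0.20, and in numbers 1 to 6 (4 and 2) it was -0.12. The 2 lowest PIO arrays for this probe set were those of animals 15 and 14, in which striatal markers were highest. Leaving them out, which was decided on after seeing the values, moved the difference to -0.14 (SE 0.043), with an adjusted p of 0.968.

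The other Il1rap probe sets were lower with PIO on average but far more variable. Probe set 1442614_at differed by -0.19 (SE 0.12), 1421844_at by -0.25 (SE 0.16) and 1421843_at by -0.16 (SE 0.14). Each of these intervals includes 0, and the control and PIO arrays overlapped. On 1421844_at the controls spanned 7.35 to 8.06 log2 units and the PIO animals 6.89 to 8.18. PIO animal 10 was the highest of all 16 arrays there, and PIO animal 15 was the lowest. The remaining probe set, 1449585_at, did not pass the filter and differed by -0.026 (SE 0.12). After removing the group means, the 4 probe sets past the filter correlated with each other over the 16 arrays at r between -0.042 and 0.69. With the probe sets averaged the difference was -0.19 (SE 0.087), with an adjusted p of 0.667 (limma).

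Il1r1, the ligand-binding chain, was the member that varied most between animals on its main probe set. Probe set 1448950_at read 7.36, 8.11 and 8.39 in controls and 7.39, 7.93 and 8.43 in PIO animals (lowest, median, highest), so the groups covered nearly the same range. The means were 8.00 ± 0.38 and 7.88 ± 0.33 (SD, n = 8 each). The difference of -0.12 (SE 0.17) has a 95% interval of -0.47 to 0.23 and a limma adjusted p of 0.902. It was 0.016 within the largest array code and 0.072 in array numbers 10 to 24, but -0.21 in numbers 1 to 6, opposite in sign. Controls 1 to 4, all in array numbers 1 to 6, lay between 7.99 and 8.39, and controls 5 to 8 between 7.36 and 8.25. The lowest arrays were control animals 6 and 5 and PIO animal 15. With the mean of the hippocampal neuron markers as a covariate, added after the values were seen, the difference was 0.0056 and its SE fell to 0.11. With the mean of the choroid plexus markers as a covariate, which was planned, the difference was -0.17 (SE 0.17). In whole tissue, fewer cells of a type and less RNA per cell cannot be told apart. The second Il1r1 probe set, 1459777_at, lay between 2.31 and 2.44 in every array, below the filter.

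Among the ligands, Il1b encodes interleukin 1 beta, the cytokine that starts the cascade. Its only probe set, 1449399_a_at, read 2.59, 2.78 and 2.92 in controls and 2.73, 2.76 and 3.12 in PIO animals. All 16 arrays were below the filter of 3.58, so these values give no measured change. The highest was PIO animal 14. Without an array above the filter, the difference of 0.037 (SE 0.055, adjusted p near 1 over all probe sets) describes the low band of the array.

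Il18 encodes a related cytokine that signals through its own receptor and the same MYD88 adaptor. It had the smallest SE of the members past the filter, and read 10.54, 10.59 and 10.70 in controls and 10.47, 10.59 and 10.67 in PIO animals. The difference was -0.021 (SE 0.036), with a 95% interval of -0.097 to 0.055 and a limma adjusted p of 0.924. The interval limits any change of Il18 to between 0.935-fold and 1.04-fold.

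Myd88, the adaptor shared by interleukin 1 and most Toll-like receptors, read 5.17, 5.22 and 5.43 in controls and 4.82, 5.22 and 5.44 in PIO animals. The low value belonged to PIO animal 16, and the highest to PIO animal 12. The difference was -0.046 (SE 0.070, adjusted p = 0.913 in limma's test). Without PIO animal 16 it was 0.0098.

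Irak1 encodes the kinase that MYD88 recruits. It had 4 probe sets, all past the filter, of which 3 were higher and 1 lower with PIO. The brightest, 1438120_x_at, read 9.55, 9.77 and 9.85 in controls and 9.67, 9.76 and 9.85 in PIO animals, with a difference of 0.019 (SE 0.046, adjusted p = 0.956 in limma's test). Probe set 1448668_a_at had the largest difference, 0.097 (SE 0.054), with control animals 2 and 6 lowest and control animal 8 highest. On 1460649_at, PIO animals 11 and 12 stood at 9.46 and 9.05, above the highest control at 8.83, while the other 6 PIO arrays lay at or below 8.69. The 4 probe sets correlated at r between 0.078 and 0.77 after removal of group means.

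Ikbkb encodes IKK beta, the kinase that marks IkB alpha for destruction. Of 5 probe sets, 3 passed the filter. The brightest, 1426207_at, read 10.30, 10.48 and 10.52 in controls and 10.19, 10.42 and 10.60 in PIO animals. The difference was -0.038 (SE 0.054, adjusted p = 0.903 in limma's test). The other 2 past the filter went opposite ways, 1426333_a_at by 0.020 and 1432275_at by -0.045, each less than its SE. The 3 correlated at r between -0.57 and 0.53.

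Rela encodes the transactivating subunit of the main NF-kappaB dimer. It read 8.71, 8.95 and 9.16 in controls and 8.75, 8.88 and 9.10 in PIO animals, with overlapping groups. The difference was -0.049 (SE 0.063, 95% interval -0.18 to 0.084, adjusted p = 0.894 in limma's test). It was 0.050 within the largest array code and 0.041 in array numbers 1 to 6, but -0.13 in numbers 10 to 24, opposite in sign.

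Nfkbia encodes IkB alpha, which holds NF-kappaB in the cytoplasm. It is also a textbook NF-kappaB target, so its RNA is often read as a sign of the pathway's activity. Of 5 probe sets, 4 passed the filter, and all of them were lower with PIO on average. The brightest, 1438157_s_at, read 11.32, 11.74 and 12.11 in controls and 11.38, 11.60 and 12.06 in PIO animals. Low arrays came from both diets, control animal 5 and PIO animal 9. High arrays did too, control animals 2 and 3 and PIO animals 10 and 16.

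The difference for Nfkbia was -0.069 (SE 0.11, 95% interval -0.31 to 0.17, adjusted p = 0.922 in limma's test). The other 3 probe sets past the filter differed by -0.17, -0.15 and -0.12, each with an interval that includes 0. Unlike the probe sets of Il1rap, the 4 followed each other closely, at r between 0.82 and 0.91 over the 16 arrays after removal of group means. The level of Nfkbia therefore differed between animals in a way that all 4 probe sets saw, and the diets did not separate these animals. The difference was -0.19 within the largest array code, -0.20 in array numbers 1 to 6 and 0.081 in numbers 10 to 24. It was -0.13 without control animal 5 and -0.016 without control animal 3.

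**Figure D2:**
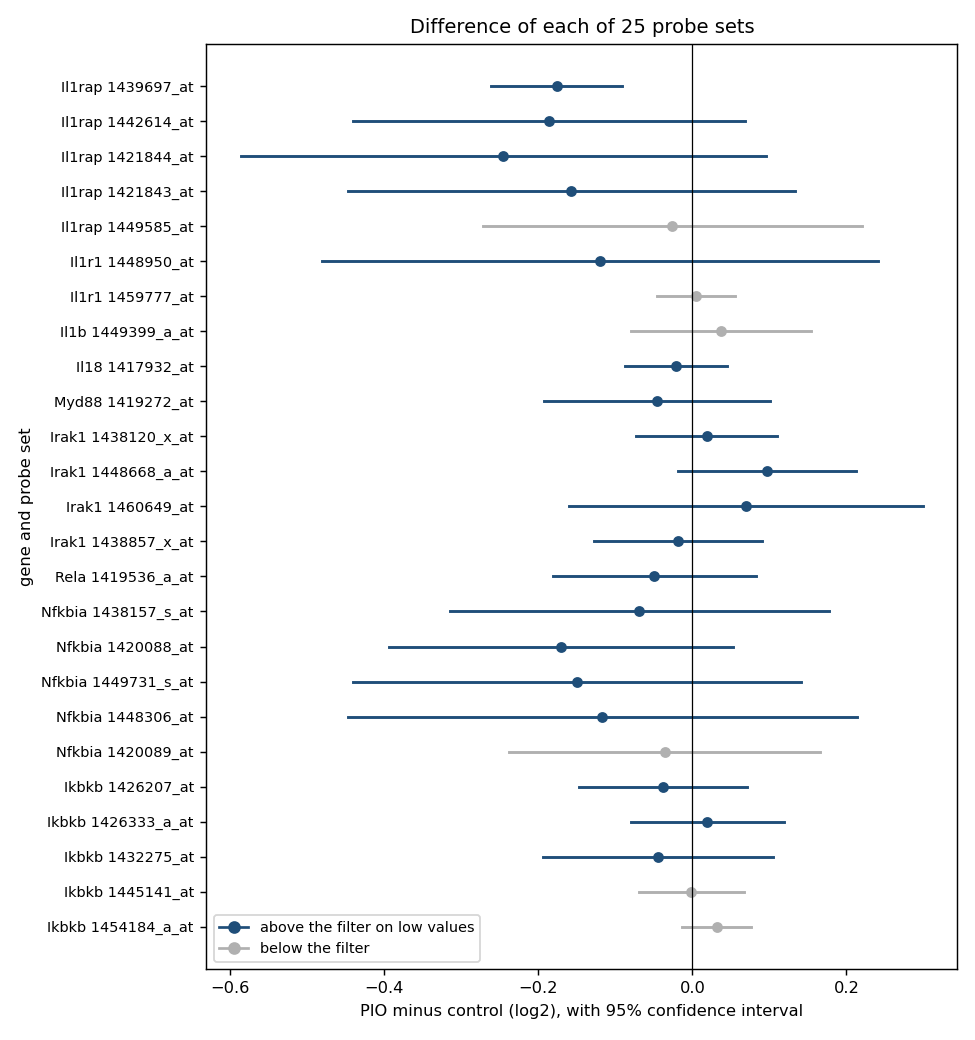
Difference between PIO and control means on the log2 scale for each of the 25 member probe sets, with 95% intervals from limma's fit over all probe sets. Blue probe sets passed the filter on low values and grey ones did not. The interval of Il1rap 1439697_at lies below 0, from -0.26 to -0.092, and the other intervals include 0.

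Promoter windows from RefSeq on GRCm38.p6, 250 bases before to 50 after each start, were found for 8 of the 10 genes, in 10 windows. They are shown for Nfkbia and for 1 of 2 windows of Il1r1, the 2 members with a match to the NF-kappaB consensus. The window of Il1rap, the member with the smallest p, is also shown and holds no match to this consensus. Capitals mark the match, which in both windows lies on the strand opposite to the gene.
Nfkbia, chr12:55492598-55492897, minus strand: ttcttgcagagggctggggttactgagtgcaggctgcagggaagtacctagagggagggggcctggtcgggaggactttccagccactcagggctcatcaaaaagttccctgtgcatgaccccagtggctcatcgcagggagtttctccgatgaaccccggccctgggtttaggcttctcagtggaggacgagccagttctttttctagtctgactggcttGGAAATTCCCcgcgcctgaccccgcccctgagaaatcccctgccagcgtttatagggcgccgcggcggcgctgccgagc
Il1r1, chr1:40266336-40266635, plus strand: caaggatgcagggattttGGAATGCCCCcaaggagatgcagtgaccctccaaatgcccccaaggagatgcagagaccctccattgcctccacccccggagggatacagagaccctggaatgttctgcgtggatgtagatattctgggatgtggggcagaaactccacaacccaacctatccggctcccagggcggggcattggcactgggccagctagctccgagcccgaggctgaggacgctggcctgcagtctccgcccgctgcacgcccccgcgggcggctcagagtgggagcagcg
Il1rap, chr16:26581455-26581754, plus strand: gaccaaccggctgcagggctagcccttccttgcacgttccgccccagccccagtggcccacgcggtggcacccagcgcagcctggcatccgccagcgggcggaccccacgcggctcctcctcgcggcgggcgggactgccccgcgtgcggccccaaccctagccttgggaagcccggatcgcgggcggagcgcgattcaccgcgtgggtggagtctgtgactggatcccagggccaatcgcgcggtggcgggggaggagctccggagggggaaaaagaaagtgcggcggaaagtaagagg

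Read on its own strand, the Nfkbia match is GGGAATTTCC and the Il1r1 match is GGGGCATTCC. On the strand of the gene, the first capital lies 29 bases before the start for Nfkbia and 232 bases before it for Il1r1. The consensus was searched on both strands and matched in 4.51% of all 32851 promoter windows. A looser form of the motif was searched as well and matched in 50.8% of all windows. It matched in 6 of the 10 member windows, among them that of Il1rap, with 9 matches counted over both strands. Whether a window holds a match thus depends on which form is used. A match is a description of these letters and not of binding.

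Variation among the members was compared pair by pair, with each on its brightest probe set. Whether they varied together as a group was not tested. Of the 28 pairs of the 8 members past the filter, 0 passed an adjusted p of 0.05 over the 28 pairs in a two-sided permutation test of Pearson's r after removal of group means (16 arrays). The strongest was Il1rap with Irak1, at r = 0.68 (permutation p = 0.00423, adjusted p = 0.0921) and rho = 0.61 (permutation p = 0.0144, adjusted p = 0.193). Without the 2 arrays farthest from the median of Il1rap r was 0.53, and within the largest array code, in numbers 1 to 6 and in numbers 10 to 24 it was 0.58, 0.88 and 0.54. The adaptor Myd88 and Ikbkb had r = 0.66 (permutation p = 0.00658, adjusted p = 0.0921) with rho = 0.36 (permutation p = 0.165, adjusted p = 0.490). Without 2 arrays that r was 0.56, and within the same sets of arrays it was 0.32, 0.43 and 0.74. Rela and Nfkbia, a subunit and its inhibitor, had r = 0.069 (permutation p = 0.799, adjusted p = 0.902) and rho = 0.012 (permutation p = 0.970, adjusted p = 0.970). Their r was -0.055 without 2 arrays and 0.44, 0.43 and 0.22 within the sets. The receptor chains Il1rap and Il1r1 had r = 0.082 (permutation p = 0.763, adjusted p = 0.902) and rho = 0.11 (permutation p = 0.696, adjusted p = 0.889). That r was -0.039 without 2 arrays and 0.15, -0.081 and 0.14 within the sets.

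For 4 members the 3 most similar of the other 12265 genes were taken by Pearson's r of group-centred values over the 16 arrays, as a description. Since each was picked as the highest of so many, these r are not to be set against those between members. Nfkbia was most like Sgk1, a serum- and glucocorticoid-induced kinase (r = 0.96), Ddit4, a stress-induced inhibitor of mTOR that glucocorticoids also raise (r = 0.94), and Trp53inp1, a stress gene induced by p53 (r = 0.91). Sgk1 read 11.98 in control animal 5 and in PIO animal 9, the 2 animals lowest in Nfkbia, and between 12.36 and 13.32 in the other 14. Within the largest array code (11 arrays) these r were 0.97, 0.97 and 0.88, and without the 2 arrays farthest from the median of Nfkbia 0.96, 0.91 and 0.88.

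Il1r1 was most like 1700017B05Rik (r = 0.96), Rem2, a small GTPase of neurons that acts on calcium channels (r = 0.95), and Prkd3, a protein kinase D (r = 0.92). In the largest code they were 0.99, 0.94 and 0.94, and without 2 arrays 0.93, 0.92 and 0.89. Rem2 was lowest in PIO animals 15 and 14 and control animal 6, at 8.55, 8.67 and 8.72. Il1rap was most like Ppargc1a, the coactivator PGC-1 alpha of mitochondrial genes (r = 0.91), Micalcl (r = 0.83) and Cracd (r = 0.79). These were 0.78, 0.81 and 0.63 in the largest code and were 0.86, 0.72 and 0.74 without 2 arrays. Ppargc1a itself differed by 0.034 between diets. The likeness of Il1rap was computed on 1439697_at alone. Its 4 probe sets past the filter correlated with each other at r between -0.042 and 0.69, so these r describe 1 probe set. Rela was most like Dtx2, a Deltex ubiquitin ligase (r = 0.81), Sez6l2 (r = 0.81) and Kctd15 (r = 0.78), with 0.86, 0.70 and 0.72 in the largest code and 0.82, 0.73 and 0.65 without 2 arrays.

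**Figure D3:**
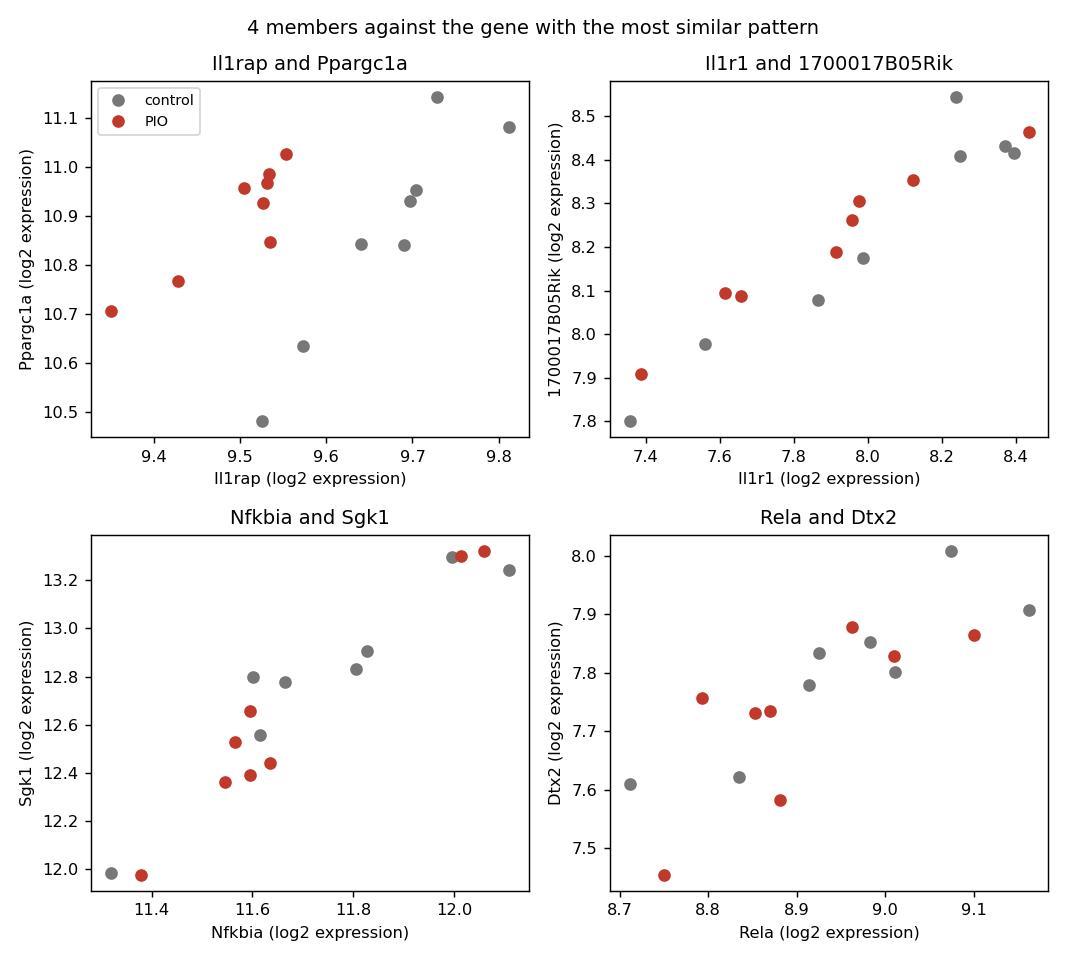
Log2 expression of Il1rap, Il1r1, Nfkbia and Rela (horizontal axes) against the gene whose group-centred values were most similar over 16 arrays (vertical axes), with control animals in grey and PIO animals in red. Nfkbia and Sgk1 line up across both diets (r = 0.96), whereas for Il1rap and Ppargc1a (r = 0.91) 7 of 8 control points lie to the right of every PIO point and control animal 4 lies among the PIO points.

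The wider pathway was read from 5 lists with 117 gene names, of which 100 had a probe set and 62 passed the filter. At an adjusted p under 0.05, limma's test called 0 of the 62 (0% of all genes). At an unadjusted p under 0.05 it called 2 of the 62, where it called 7% of all genes. Both were lower with PIO, and 3.15% of all genes were called and lower. In all 34 were lower and 28 higher with PIO, with a median of -0.016.

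Much of the inflammatory output lay below the filter. Of 27 NF-kappaB target genes with a probe set 14 did not pass, among them the cytokine genes Tnf and Il6, the chemokine genes Ccl2, Ccl3, Ccl4 and Ccl5, and Nos2, the inducible nitric oxide synthase. Of the 13 that passed, 8 were lower and 5 higher, with a median of -0.032. Tnfaip2, a gene induced by TNF, differed by -0.18 (SE 0.073, adjusted p = 0.681 in limma's test). The chemokine gene Cxcl10 was at -0.23 (SE 0.14), with an SD of 0.41 in controls and 0.11 with PIO. Its medians were closer, at 4.27 in controls and 4.19 with PIO, and the highest control read 5.40. Irf1, an interferon regulatory factor, was at 0.084 (SE 0.067).

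Adaptors and kinases downstream of the receptor had 9 of 15 lower and a median of -0.027. Tab1, which activates the kinase TAK1, had the smallest p of the 62 genes, with a difference of -0.29 (SE 0.11, unadjusted p = 0.0181, adjusted p = 0.681 in limma's test). The ubiquitin ligase Traf6, which relays the signal of IRAK1, was at -0.12 (SE 0.060), and Peli1, another ligase that acts on IRAK proteins, at 0.095 (SE 0.048). Among the other NF-kappaB subunits, inhibitors and IKK regulators, 14 of 25 were lower, with a median of -0.015. There Traf5 was at -0.16 (SE 0.083), Sharpin, part of the linear ubiquitin ligase, at -0.069 (SE 0.045) and Ikbkg, the scaffold NEMO, at -0.068 (SE 0.046).

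Of the interleukin 1 family, 12 of 16 genes with a probe set were below the filter, including Il1a, the decoy receptor Il1r2 and the antagonist Il1rn. Of the 4 that passed, 3 were higher. The neuronal homologues of the accessory chain, Il1rapl1 and Il1rapl2, were at 0.23 (SE 0.16) and 0.31 (SE 0.30), and the alarmin Il33 at -0.12 (SE 0.10). Inflammasome genes had 2 of 5 lower, with the adaptor Pycard at -0.20 (SE 0.10), Aim2 at -0.073 (SE 0.067) and Nlrp3 at 0.065 (SE 0.10).

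**Figure D4:**
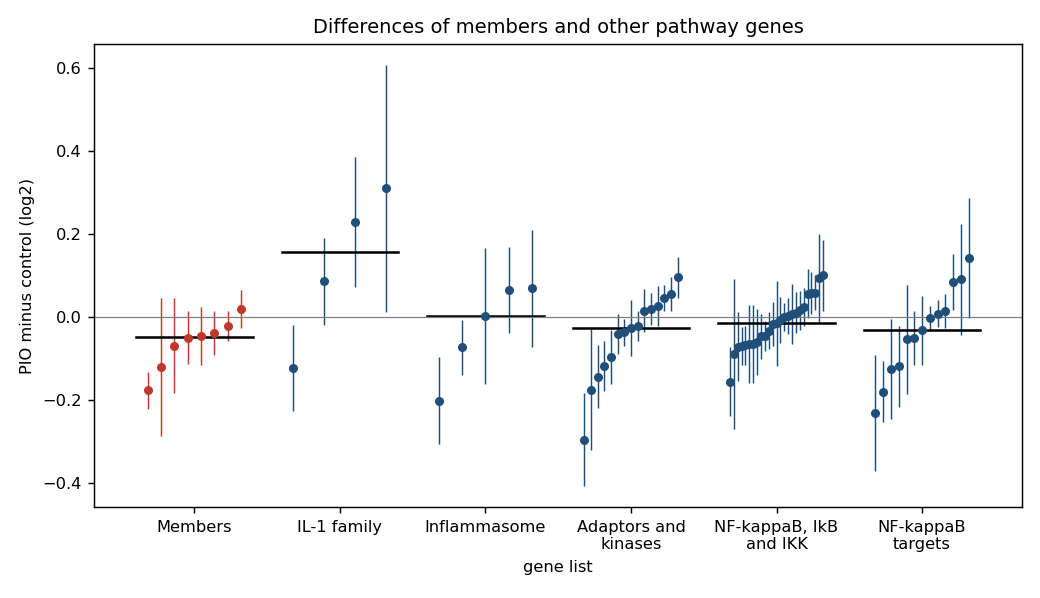
PIO minus control difference (log2) with its SE for the 8 members past the filter (red) and for the genes of 5 pathway lists past the filter (blue), with black lines at list medians. The members have a median of -0.048 and the target genes one of -0.032.

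Markers of microglia, the cells that make most interleukin 1 in brain, were lower with PIO in 22 of 24 genes, with a median of -0.19. At an unadjusted p under 0.05, 5 of the 24 were lower, where 3.15% of all genes were, and 0 passed an adjusted p of 0.05 (limma). Their mean ran from 8.60 to 9.23 log2 units in controls and from 8.51 to 9.06 with PIO, and their summed linear level from 17499 to 26785 and from 16149 to 23097. All 24 passed the filter. With the microglial mean as a covariate Il1rap differed by -0.19 (SE 0.050), and Il1r1 by 0.061 (SE 0.17). Endothelial markers were lower in 6 of 11 genes, with a median of -0.12, means of 7.99 to 8.44 in controls and 7.52 to 8.36 with PIO, and summed levels of 4403 to 6140 and 3322 to 6143. Of the endothelial markers Cdh5, Kdr and Tie1 were below the filter. At an unadjusted p under 0.05 (limma), 1 of the 11 was lower, where 3.15% of all genes were. Markers of hippocampal neurons were lower in 8 of 11, with means of 10.49 to 10.78 in controls and 10.15 to 10.88 with PIO. Their summed levels were 29977 to 34708 and 28684 to 36464. An unadjusted p under 0.05 (limma) was reached by 1 of the 11, which was higher, where 7% of all genes reached it. Striatal markers were higher in 8 of 9, with means of 7.79 to 8.71 in controls and 7.98 to 9.28 with PIO. Their summed levels were 4440 to 7062 and 5271 to 12007, and Drd2, Ido1 and Six3 were below the filter. At an unadjusted p under 0.05 (limma), 2 of the 9 were called, both higher, where 7% of all genes were called. Past an adjusted p of 0.05 there were 0 striatal markers. Choroid plexus markers were higher in 14 of 14, with a median of 1.13. Of the 14, 0 had an unadjusted p under 0.05 (limma), where 7% of all genes did. The choroid plexus mean ran from 4.64 to 10.10 in controls and from 4.47 to 10.33 with PIO, so both diets held low and high animals. It was 4.47 to 5.38 in control animals 1, 4, 5 and 7 and PIO animals 9 and 13. In the other animals it was 8.22 or higher. Summed levels were 3704 to 112735 in controls and 2027 to 117473 with PIO, and Trpv4 was below the filter. With the choroid plexus mean as a covariate Il1rap differed by -0.17 (SE 0.046), Il1r1 by -0.17 (SE 0.17) and Nfkbia by -0.13 (SE 0.11). Of the remaining lists, astrocyte markers were lower in 10 of 12 (median -0.069) and oligodendrocyte markers in 12 of 12 (median -0.24). At an unadjusted p under 0.05, 3 and 7 of them were lower, where 3.15% of all genes were, and 0 of either list passed an adjusted p of 0.05 (limma). Of 9 blood leukocyte markers 2 passed the filter, both lower, and Cd3e, Cd79a and S100a8 were among those below it. The part of the endothelial, astrocyte, oligodendrocyte and blood leukocyte markers in these results was not tested.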

How the data were processed

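The data are 16 Affymetrix arrays of mouse hippocampus, 8 control and 8 PIO, 1 per numbered animal according to the labels. The authors deposited 1 value per probe set and array. These are log2 values, as read from the values themselves, which run from 0.33 to 16.6, and they were used as deposited. Per the submitters' processing notes, R 2.7.1, GCRMA and MAS5 were among the tools, with no order stated. Which of them made the values, the array annotation and the build are not given in the sources used here. Some probe sets below the filter lay in a narrow low band, such as Il1r1 1459777_at at 2.31 to 2.44. Detection calls were not used here. Precision depends on how many arrays there were.

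The table held 45101 probe sets, of which 64 controls were left out. Of the others 34945 had 1 gene symbol in the platform annotation, 932 several and 9160 none. For each of 12266 genes the probe set with the highest mean was tested. The fits (lmFit, then eBayes) used limma 3.58.1 under R 4.3.3, with Benjamini-Hochberg adjustment, and every probe set was tested in a second fit without the filter. Correlations used 100000 resamples in NumPy 2.4.6 (20000 in alternatives). Both methods were tested on simulated data. The 10 members, 5 pathway lists and 8 marker lists were chosen with earlier results of these data known. The text names all members, up to 3 genes per pathway list with the smallest p and the 3 genes most like each of 4 members. Genes below the filter, such as Tnf, were named as such after their values were seen. Alternatives were other filters, other rules for probe sets, other normalizations, array code and number as blocks or subsets, other priors, array weights, marker means as covariates and each animal left out.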

Additional observations from a re-analysis of the deposited data

Results flagged for a closer look

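Of 50 groups of 8 arrays (25 probe sets and 2 diets), 7 held an array whose gap to its nearest neighbour exceeded Dixon's critical value of 0.526 of the group's range. Chance flags about 1 group in 20. For Il1rap probe set 1421843_at, control animal 1 was at 5.98, below the other controls at 6.18 to 6.34. For Il1b, PIO animal 14 was at 3.12 with the other PIO animals between 2.73 and 2.78, all below the filter on low values. For Nfkbia probe set 1420088_at, control animal 5 was at 11.12, and the other controls lay between 11.59 and 11.89. For Nfkbia probe set 1420089_at, which is below the filter, control animal 3 was at 3.28 and PIO animal 12 at 2.86. For Ikbkb, PIO animal 11 was at 7.97 on 1426333_a_at, above the others at 7.68 to 7.81, and PIO animal 13 was at 4.16 on 1432275_at, below the others at 4.56 to 4.68.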

How the results depend on the processing

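The count of members past an adjusted p of 0.05 was 0 under all 17 other settings and with each of the 16 animals left out, as were the counts over all genes and over the other pathway genes. At an unadjusted p under 0.05 there were 290 to 1137 genes, against 859, and 1058 to 3344 probe sets, against 2367. The smallest adjusted p of any member was 0.312, for Il1rap without PIO animal 10, and the number of members at an unadjusted p under 0.05 was 1 throughout. Over all probe sets the count was 0 to 1 with 1 animal left out, 1 without control animal 2. On its brightest probe set, or with its probe sets averaged, Il1rap was lower with PIO throughout, by -0.20 to -0.16 with 1 animal left out. Il18 and Ikbkb kept their sign as well. Of 147 differences of 9 members under other settings 14 reversed, none of them past the threshold and with the cause not tested. In the largest array code alone these were Il1r1 at 0.016, Myd88 at 0.047, Irak1 at -0.0037 and Rela at 0.050. In array numbers 10 to 24 alone they were Il1r1 at 0.072, Irak1 at -0.0025 and Nfkbia at 0.081. With the microglial covariate they were Il1r1 at 0.061, Myd88 at 0.042 and Il1b at -0.014. Settings added after seeing the data gave Il1r1 at 5.86e-05 and Il1b at -0.0092 without PIO animals 14 and 15, Il1b at -0.0042 with the striatal covariate and Il1r1 at 0.0056 with the hippocampal neuron covariate. With 1 animal left out the ranges were -0.21 to -0.049 for Il1r1, -0.079 to 0.0098 for Myd88, -0.0094 to 0.034 for Irak1, -0.0088 to 0.059 for Il1b, -0.033 to -0.0042 for Il18, -0.084 to -0.019 for Rela, -0.13 to -0.016 for Nfkbia and -0.067 to -0.0079 for Ikbkb. The count of correlated pairs of members was 0, and 1 after quantile normalization (Il1rap and Irak1, r = 0.76, permutation adjusted p = 0.0210) and 1 in the largest array code alone (Il18 and Irak1, r = -0.87, permutation adjusted p = 0.0126). It ranged from 0 to 1 with 1 animal left out, 1 without PIO animal 13. No paired analysis was possible because the diets share no subject numbers. Low values limit what can be said of Il1b.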
